A study of Homo sapiens with 6 samples.

Results

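Glycolysis and the response to low oxygen were followed through 46 genes in read counts of MDA-MB-231, an established line of mesenchymal, hormone receptor-negative human breast cancer cells known for high glycolytic activity. The 46 genes are a fixed list of 4 sugar and lactate transporters, 17 glycolytic enzymes, 3 regulators of glycolytic flux, 7 oxygen-sensing genes and 15 target genes of the hypoxia-inducible factors (HIF). All 46 were found by gene symbol among the 28979 gene IDs of the count files, and 45 of them were among the 14547 genes that passed the filter on low counts. The exception was LDHB, the heart form of lactate dehydrogenase, with 17 counts in the Ang libraries and 20 counts in the Con libraries. The study sequenced poly-A selected RNA of this cell line in 6 libraries, Ang replicates 1 to 3 and Con replicates 1 to 3. According to the series design, the breast cancer cells received exosomes, small secreted vesicles, from hypertrophic or from normal cardiomyocytes, in a search for microRNA targets. No label states which of these Ang or Con stands for, a time or a dose, so the groups keep their labels here. No label states that the libraries come from separate cultures either, so every p-value reflects only how these 6 libraries vary, and that variation may be technical.

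Glycolysis splits glucose into pyruvate in the cytosol, and several of its steps are run by isoenzymes, products of separate genes that differ in regulation. HIF is a pair of an oxygen-labile alpha subunit, HIF1A or EPAS1, with the stable partner ARNT. In the presence of oxygen, prolyl hydroxylases of the EGLN family mark the alpha subunit for the ubiquitin ligase factor VHL, and without oxygen the pair binds short promoter sites and raises transcription of glycolytic enzymes, glucose transporters and lactate exporters. The alpha subunits are controlled mainly at the protein level, which RNA counts do not measure.

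Total counts ran from 3482629 to 3961442 in Ang and from 3369212 to 5437190 in Con. Levels are given as CPM, the count scaled to the library's effective size (TMM factors, from trimmed means of gene ratios), and levels of different genes are compared only as CPM per kilobase of merged exons. Of 10 marker genes of this cell line, 9 were detected in every library, with summed levels of 3067 to 3214 CPM in Ang and 2467 to 3186 CPM in Con, while SPARC, an extracellular matrix protein gene, was at 0 or near it. Of 7 genes expected low or absent in this line, 6 were among the gene IDs and 3 were detected in every library. These were ERBB2 at 85.8 to 128 CPM, EPCAM at 8.95 to 10.3 CPM and GATA3 at 1.26 to 6.59 CPM. CDH1 had 0 to 2.03 CPM, and ESR1 and PGR, the hormone receptor genes, had 0 to 3 counts in each library. Of 14 cardiomyocyte markers, 9 were among the gene IDs and 2 were tested. TTN had 206 to 244 CPM in Ang and 193 to 291 CPM in Con. NPPA had 6.05 to 12.4 CPM in Ang and 6.55 to 17.3 CPM in Con. The rest of those present, MYH6, MYL2, TNNI3, ACTN2, RYR2, PLN and NPPB, had 0 to 1.35 CPM. The libraries also differed in how reads fell on the strands. In 250 pairs of a noncoding gene lying under exons of a protein-coding gene on the other strand, the noncoding gene had a median of 35.0, 32.9 and 35.4 times the counts per base of its coding partner in Ang replicates 1 to 3, against 39.3, 23.2 and 41.1 times in Con replicates 1 to 3. Con replicate 2 thus stood apart from the other 5 libraries, and results that rest on it are given with and without it. Fits with this ratio as a covariate are among the alternatives below. Its part in any result was not tested in another way.

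No member of the pathway passed the test between Ang and Con. With edgeR's quasi-likelihood test and Benjamini-Hochberg adjustment over all 14547 genes, 0 of 45 members were called, against 0% of all genes, and each member had an adjusted p of 0.999. At an unadjusted p under 0.05 there were 0 members, against 3.4% of all genes (494 genes). DESeq2 and limma-voom also called 0 genes, with 411 and 447 genes at an unadjusted p under 0.05. Log2 fold changes of Ang over Con ran from -0.32 for HIF1A to 0.74 for CA9, a carbonic anhydrase of the cell surface, with a median of 0.09 over the members and -0.01 over all tested genes. They were above 0 for 34 of 45 members, against 49.2% of all genes. The median SE was 0.21. For 40 of 45 members (88.9%) the 95% interval lay within 2-fold in both directions, against 64.2% of all genes, and for 24 of 24 members of at least 50 CPM. The wider intervals belonged to EGLN1, EGLN3, CA9, ANGPTL4 and STC2. All 3 Ang libraries lay above or below all 3 Con libraries for 3 of 45 members (6.67%), against 8.16% of all genes.

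Without Con replicate 2, edgeR called 40 of 14867 genes, which is 0.269%, and still 0 of 45 members. At an unadjusted p under 0.05 there were then 15 of 45 members, against 11% of all genes. Of these 15, HIF1A was lower in Ang and the other 14 were higher: SLC2A3, SLC16A3, HK1, GPI, PFKL, PFKP, GAPDH, PGK1, ENO1, ENO2, PKM, EPAS1, CA9 and NDRG1. The smallest adjusted p-values were 0.0526 for HIF1A and 0.0826 for PFKL. The median log2 fold change of the members was 0.22 in this fit. The set of members near the threshold therefore depends on 1 library, and the values by library are given for that reason. Without that library the strand ratios do not overlap either, at 32.9 to 35.4 in Ang against 39.3 and 41.1 in Con. Group and strand ratio thus cannot be told apart in any result given without Con replicate 2.

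**Figure D1:**
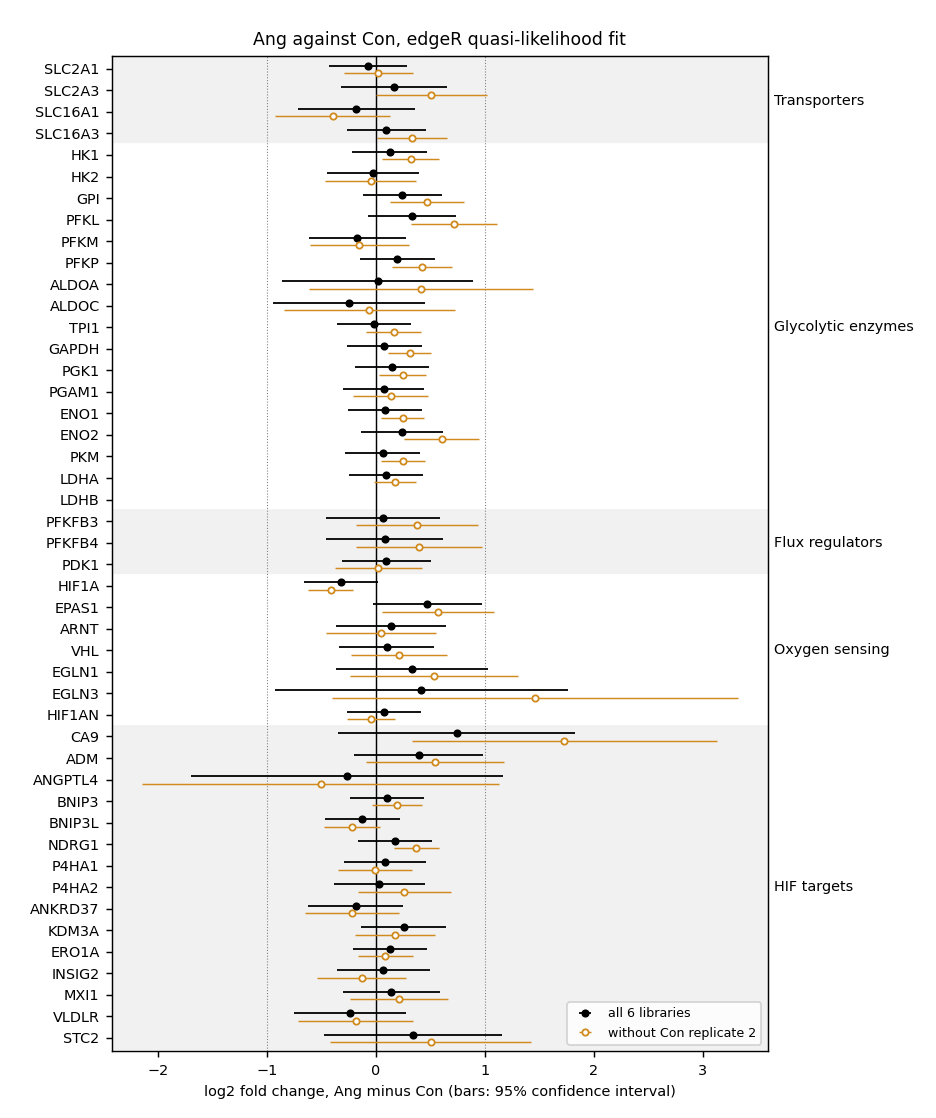
Log2 fold change of Ang over Con for the 45 tested genes with 95% intervals from the edgeR fit (horizontal axis), grouped by role, with filled points for all 6 libraries and open points without Con replicate 2; LDHB was not tested. With all 6 libraries the estimates run from -0.32 for HIF1A to 0.74 for CA9, the median is 0.22 without Con replicate 2, and no gene of the list passed the adjusted threshold in either fit.

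Sites that HIF can bind were looked up in the promoters of the list. The windows come from RefSeq (GRCh38.p14) promoters of 300 bases, 250 before and 50 after each gene's start, which matched 41 of the 46 members. For each member 1 promoter was kept, while the set of all promoters was not reduced to 1 per gene. The core searched was ACGTG or GCGTG on either strand, so that it reads CACGT or CACGC on the other strand, and the palindrome CACGTG was counted once. At least 1 site was present in 29 of 41 members (70.7%), against 48.4% of 35116 promoters. These promoters are rich in GC, and at a GC content of 60 to 80% the shares were 24 of 30 members (80%) and 65.1% of all promoters. At least 2 sites were present in 26.8% of members and 20.3% of all promoters, but at that GC content in 30% of members and 32.3% of all promoters. By role, 11 of 13 target genes, 12 of 17 enzymes, 3 of 6 oxygen-sensing genes, 2 of 3 flux regulators and 1 of 2 transporters had a site. The highest number was 5, in BNIP3 and VLDLR, followed by 4 in LDHA, PGK1 and ALDOC. A match is a run of letters and not a measured binding site.

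The windows of 6 abundant members, of EPAS1, which had the smallest p, and of CA9, which had the largest fold change, are shown 5′ to 3′ on the strand of the gene, with the core in capitals. Where a promoter held more than 1 site, only the site nearest the gene's start is shown. This applies to ENO1 with 2 sites and to LDHA and PGK1 with 4 sites each. The LDHA window is shorter because the promoter record ends there.
GAPDH, chr12:6535174-6535198, plus strand: ctgcggggtcACGTGtcgcagagga
ENO1, chr1:8878744-8878768, minus strand: agctgaggggGCGTGccccggaggc
LDHA, chr11:18394591-18394612, plus strand: atctcattgcCACGCgcccccg
HIF1A, chr14:61695299-61695323, plus strand: gctgagagcgGCGTGggctggggtg
PGK1, chrX:78104266-78104290, plus strand: ctccggagcgCACGTcggcagtcgg
PKM, chr15:72231164-72231188, minus strand: acagcagctgCACGCgccgtggctc
EPAS1, chr2:46297280-46297304, plus strand: gcctgccggcGCGTGcccgcccaca
CA9, chr9:35673900-35673924, plus strand: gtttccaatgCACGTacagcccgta
The cores shown start 80, 72, 204, 117 and 18 bases before the gene's start in GAPDH, ENO1, HIF1A, EPAS1 and CA9. In LDHA, PGK1 and PKM they start 38, 28 and 12 bases after it.

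Levels within the list spanned nearly the whole range of the cell's protein-coding genes. Per kilobase, the 6 most abundant members over all libraries were GAPDH at 337, ENO1 at 161, LDHA at 147, HIF1A at 100.4, PGK1 at 95.4 and PKM at 78.3 CPM per kilobase, closely followed by TPI1 at 77.3. Among 11107 tested protein-coding genes, GAPDH stood at percentile 99.8 and TPI1 at percentile 98.0. At the other end, EGLN3 stood at percentile 2.99 and LDHB would stand at percentile 4.02. The middle of the pathway was uneven, with ALDOA, the muscle aldolase that is also the usual form in cultured cells, only at percentile 30.2.

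**Figure D2:**
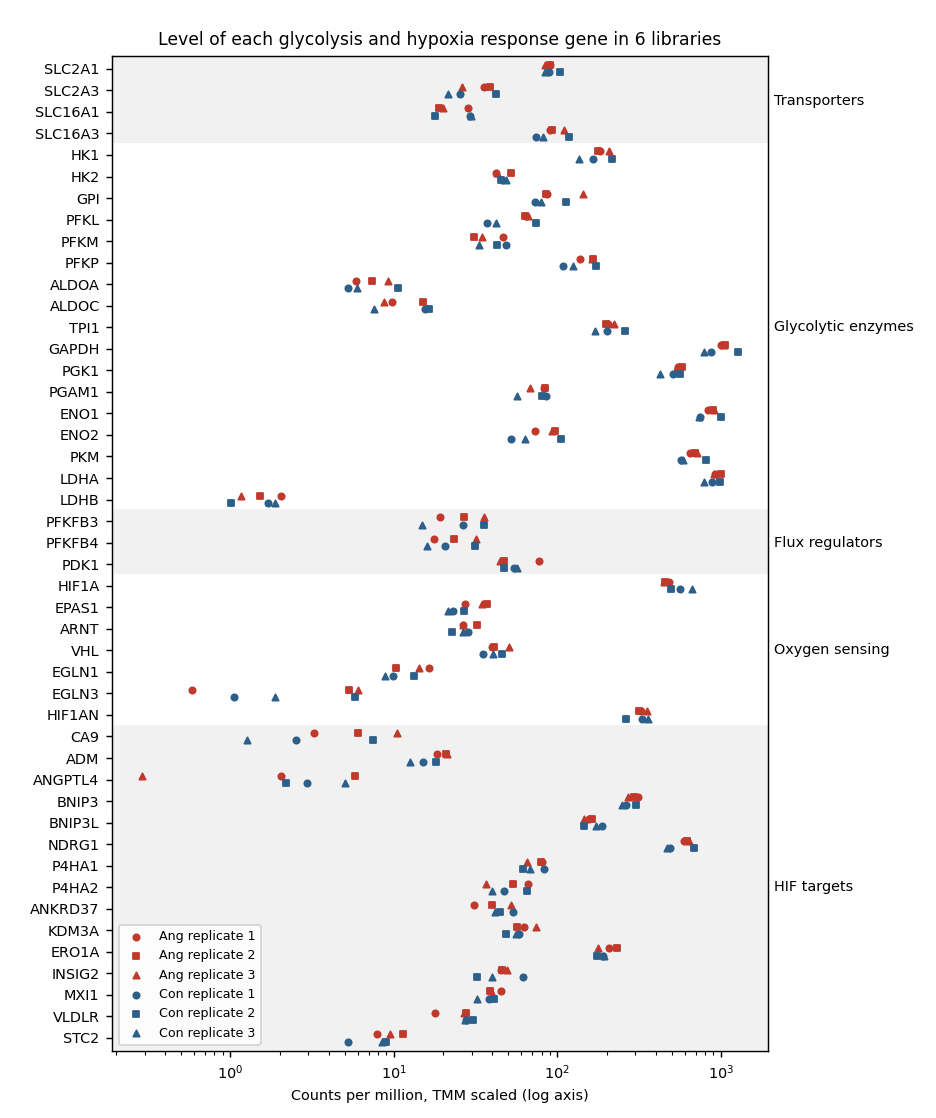
Level of each of the 46 genes in every library, in CPM on a log10 axis, with Ang and Con in different colours and genes grouped by role. Within a gene, the 3 Ang libraries lie below the 3 Con libraries for HIF1A and above them for EPAS1 and ADM, and the groups overlap for the others; counts are not divided by length, so levels of different genes are not comparable here.

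Several members lie opposite another gene. In GENCODE 29, 23 members share exon bases with a gene on the other strand and 23 do not. For 10 members, 1 such partner gene each held at least 10 times the member's counts per base. Over all libraries, ENSG00000274904, a gene inside ALDOA on the other strand, had 6898 counts where ALDOA had 188, a ratio of 276 per base. ENSG00000265168 opposite ALDOC had 3606 counts against 317 for ALDOC, a ratio of 112. ENSG00000269968 opposite the end of GAPDH had 296363 counts against 25366 for GAPDH, a ratio of 82.5. The aldolase and GAPDH loci thus had most of their counts on the gene that is annotated on the other strand. The other partners were RAB11B-AS1 at ANGPTL4 (71.2, with 1 shared base), ENSG00000258757 at ERO1A (49.9), P4HA2-AS1 at P4HA2 (29.4), PDK1-AS1 at PDK1 (22.1), ENSG00000237768 at P4HA1 (21.2), ARHGEF39 at CA9 (14.4) and CSNK1D at SLC16A3 (11.4). HIF1A-AS1 had 4.23 times the counts per base of HIF1A. Of the 23 pairs counted in the files, 10 had a ratio of at least 10, 4 had a ratio between 1 and 10 and 9 had a ratio below 1. The ratios below 1 belonged to 8 members, SLC2A1, SLC16A1, HK2, PFKM, TPI1, ENO1, HIF1AN and BNIP3L. For HIF1AN, the asparaginyl hydroxylase that inhibits HIF, the partner NDUFB8, a respiratory complex I subunit gene that shares 325 exon bases, had 62 counts against 7805 for HIF1AN. That pair was picked out after its values were seen. The strand setting of the counting is not given in the sources used here, so reads of the genes in such a pair cannot be told apart. The levels of all 23 overlapping members are uncertain for this reason. The 23 members free of overlap are not thereby shown to be sound. Genes free of overlap held 28.7% of the counts in Con replicate 2, where the strand ratio was lowest at 23.2. They held 21.7% in Con replicate 3, where it was highest at 41.1. Whether the strand setting affects the levels and shares of members free of overlap was not tested.

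**Figure D3:**
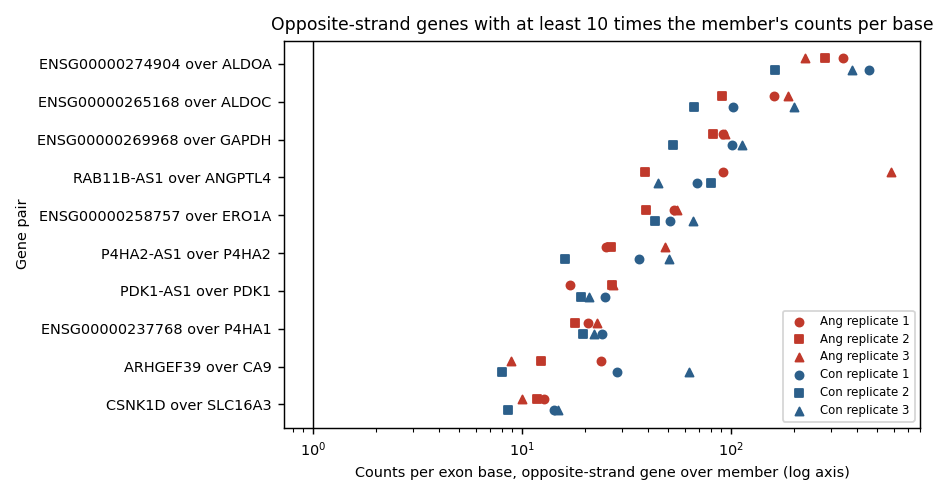
Counts per base of the gene on the opposite strand divided by counts per base of the member (log10 axis), by library (red for Ang, blue for Con), for the 10 members where this ratio was at least 10 over all libraries. ALDOA has the highest ratio over all libraries, 276, and in Con replicate 2 the ratio of GAPDH is 53.0, its lowest value.

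Glucose enters through SLC2A1 (GLUT1), the widespread transporter, and SLC2A3 (GLUT3), a high-affinity form. SLC2A1 had 90.1, 89.8 and 83.5 CPM in Ang, against 88.9, 104 and 83.7 CPM in Con. SLC2A3 had 35.5, 38.8 and 26.3 CPM in Ang, against 25.6, 41.9 and 21.4 CPM in Con. For both genes the groups overlapped and Con replicate 2 was the highest library. Per kilobase, SLC2A1 made up 77.5 ± 2.79% of the pair in Ang and 80.6 ± 3.82% in Con (SD, n = 3 each), an overlap with an exact two-sided permutation p of 0.3, where 0.1 is the smallest that 3 against 3 libraries can give. Lactate and pyruvate pass through SLC16A1 (MCT1) and SLC16A3 (MCT4), the HIF-responsive exporter of glycolytic cells. SLC16A1 had 28.5, 18.9 and 19.9 CPM in Ang, against 29.4, 17.7 and 29.6 CPM in Con. SLC16A3 had 90.7, 92.3 and 110.3 CPM in Ang, against 73.7, 117 and 82.1 CPM in Con. SLC16A3 was the major form per kilobase in all 6 libraries. The share of SLC16A1 was 34.7, 25.8 and 23.4% in Ang and 40.3, 20.4 and 37.9% in Con, so it varied more within Con than between the groups.

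The early steps are run by hexokinases and phosphofructokinases. HK1, the constitutive hexokinase, had 183, 176 and 206 CPM in Ang, against 165, 214 and 135 CPM in Con. HK2, the insulin- and HIF-responsive form that many tumours raise, had 42.0, 52.2 and 42.5 CPM in Ang, against 46.0, 45.1 and 48.4 CPM in Con. HK1 held 79.9 ± 3.03% of the pair per kilobase in Ang and 77.5 ± 4.58% in Con (exact permutation p = 0.6). GPI, which converts glucose 6-phosphate to fructose 6-phosphate, had 86.9, 85.5 and 144 CPM in Ang, against 73.1, 113 and 78.9 CPM in Con. Its log2 fold change was 0.24 ± 0.19 (SE) with an unadjusted edgeR p of 0.187, and Ang replicate 3 alone stood above all Con libraries.

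Phosphofructokinase sets the pace of glycolysis through liver (PFKL), muscle (PFKM) and platelet (PFKP) subunits that assemble into mixed tetramers. PFKP led with 138, 166 and 163 CPM in Ang, against 109, 173 and 124 CPM in Con. PFKL had 64.6, 63.3 and 66.4 CPM in Ang, against 37.0, 73.9 and 42.1 CPM in Con. PFKM had 46.7, 30.8 and 34.4 CPM in Ang, against 48.6, 42.9 and 33.3 CPM in Con. The 3 Ang libraries of PFKL were within a narrow band, above Con replicates 1 and 3 and below Con replicate 2. The log2 fold change of PFKL was 0.33 ± 0.20 with an unadjusted edgeR p of 0.104. Without Con replicate 2 it was 0.72 ± 0.20, with an adjusted edgeR p of 0.0826. Per kilobase, PFKP made up 72.1 ± 3.93% of the family in Ang and 70.9 ± 3.02% in Con. PFKL made up 16.3 ± 0.803% in Ang and 14.2 ± 2.16% in Con (exact permutation p = 0.3), and PFKM 11.5 ± 3.15% in Ang and 14.9 ± 4.42% in Con (exact permutation p = 0.4). PFKP thus led in every library, and the order of the other subunits was not the same in all of them, as PFKM exceeded PFKL in Con replicate 1. That order also depends on the gene length used: over all libraries PFKL and PFKM held 15.3% and 13.2% per kilobase of merged exons, but 13.0% and 15.5% per kilobase of the longest transcript and 23.5% and 16.7% without length.

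Aldolase, which splits the sugar into 3-carbon pieces, was counted low in both forms. ALDOA had 5.87, 7.31 and 9.24 CPM in Ang, against 5.28, 10.6 and 5.98 CPM in Con. ALDOC, the brain form and a HIF target, had 9.68, 15.1 and 8.67 CPM in Ang, against 15.4, 16.4 and 7.55 CPM in Con. The groups overlapped for both genes. The ALDOA share per kilobase was 34.0 ± 9.25% in Ang and 30.1 ± 8.70% in Con, and both aldolases are loci where the opposite-strand gene holds most counts, so this share is uncertain. TPI1, which interconverts the triose phosphates, had 198 to 221 CPM in Ang and 169.5 to 259 CPM in Con, with overlap.

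GAPDH, the enzyme that forms the first NADH of the pathway, had 997, 1061 and 1041 CPM in Ang, against 875, 1267 and 792 CPM in Con. PGK1, which yields the first ATP, had 544, 577 and 539 CPM in Ang, against 511, 564 and 421 CPM in Con. The Ang values of GAPDH lay inside the range of Con, and those of PGK1 overlapped its upper end. The gene opposite GAPDH, ENSG00000269968, averaged 13017 ± 708 CPM in Ang and 11546 ± 1766 CPM in Con. PGAM1, the next mutase, had 67.6 to 84.5 CPM in Ang and 56.6 to 85.3 CPM in Con. Processed pseudogenes of these genes held few counts, 0.398% of the GAPDH count over 20 pseudogenes, 4.13% for PGAM1 over 6 and 0.739% for LDHA over 4, but reads shared with such copies may be split between them.

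ENO1, the general enolase, had 832, 896 and 904 CPM in Ang, against 745, 997 and 735 CPM in Con. ENO2, the neuronal enolase and a HIF target, had 72.5, 97.1 and 92.4 CPM in Ang, against 52.2, 105 and 63.5 CPM in Con. For ENO2 all Ang libraries were above Con replicates 1 and 3 and all were below Con replicate 2. Its log2 fold change was 0.24 ± 0.19 with an unadjusted edgeR p of 0.214, and 0.60 ± 0.17 without Con replicate 2, with an adjusted edgeR p of 0.106. ENO1 made up 89.1 ± 1.07% of ENO1 plus ENO2 per kilobase in Ang and 90.3 ± 1.80% in Con (exact permutation p = 0.4). ENO3, the muscle enolase, is not on the list and was higher per kilobase than both, at 724 CPM per kilobase over all libraries. It had 3123, 3003 and 3414 CPM in Ang, against 3104, 2556 and 3448 CPM in Con. With ENO3 in the family, the ENO1 share was 17.9 ± 0.944% in Ang and 18.0 ± 4.70% in Con. The ENO3 share was then 78.4 to 80.7% in Ang and 73.6 to 83.9% in Con, with the groups overlapping. Widening a family beyond the list was a choice made after the data were seen. ENO3 shares 111 exon bases with PFN1, the gene of the actin-binding protein profilin, on the other strand, which had 5758 counts over all libraries against 75154 for ENO3, so the level of ENO3 is uncertain in the same way. PKM, whose spliced forms M1 and M2 are not separated by a count per gene, had 651, 695 and 711 CPM in Ang, against 569, 816 and 584 CPM in Con. The spread of PKM within Con again covered all Ang values.

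Lactate dehydrogenase was nearly all of the A form, also with LDHC, LDHAL6A and LDHAL6B added, where LDHA held 98.9 ± 0.487% per kilobase in Ang and 97.9 ± 0.879% in Con. LDHA, the form that favours lactate production, had 926, 1002 and 903 CPM in Ang, against 883, 981 and 787 CPM in Con. LDHB had 7, 6 and 4 counts in Ang, against 8, 6 and 6 counts in Con. As a share of LDHA plus LDHB counts, LDHB was 0.221% (0.0891 to 0.456%), 0.151% (0.0553 to 0.328%) and 0.128% (0.0348 to 0.327%) in Ang, against 0.191% (0.0824 to 0.376%), 0.103% (0.0379 to 0.225%) and 0.239% (0.0878 to 0.520%) in Con, with exact Clopper-Pearson 95% intervals that cover counting error only. The 6 intervals overlap, and no test of single libraries against each other was run on this share. No gene on the opposite strand of LDHA or LDHB is annotated in GENCODE 29. Per kilobase the LDHA share was 99.7 ± 0.101% in Ang and 99.6 ± 0.143% in Con (exact permutation p = 0.9).

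**Figure D4:**
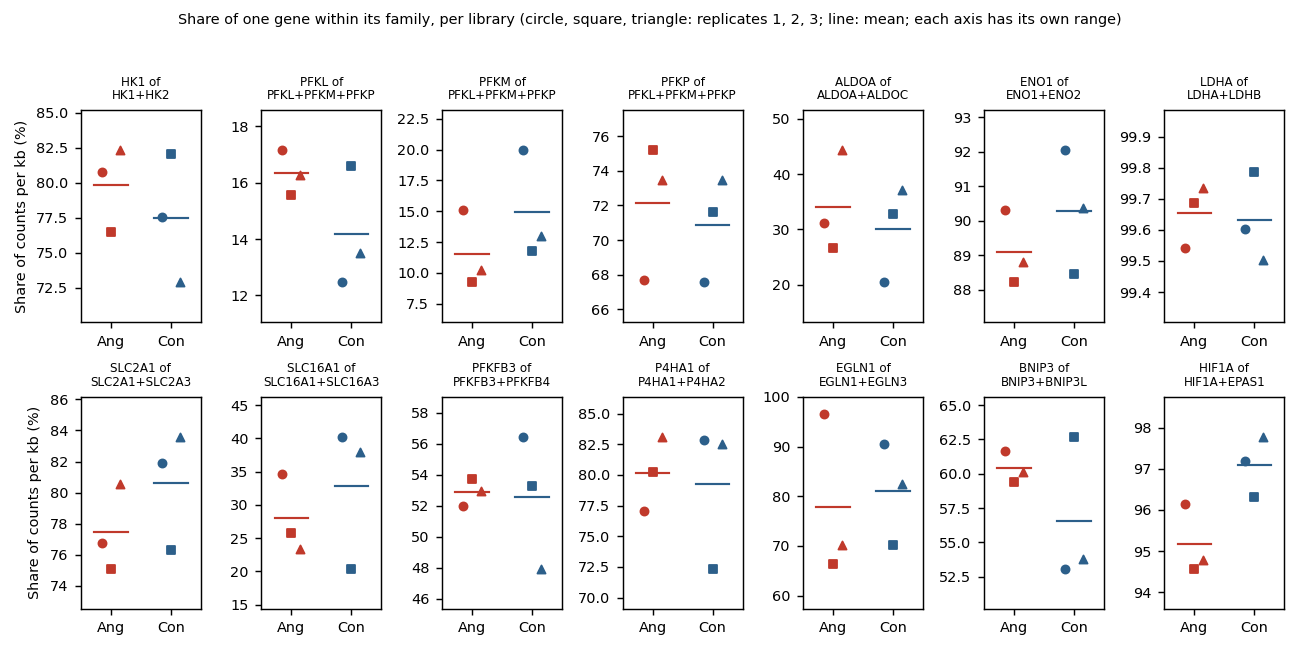
Share of each family's counts per kilobase of merged exons held by the named form, in percent, in each library, with the group mean as a line and an axis range of its own in each panel. Only the HIF alpha panel shows all 3 Ang libraries, 94.6 to 96.2%, outside the range of the 3 Con libraries, 96.3 to 97.8%, for HIF1A.

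As a group, 12 of 16 tested enzymes had a log2 fold change above 0, with a median of 0.08, and 0 were called. Con replicate 2 was the highest library for 10 of these 16 enzymes and the lowest for 0, and over all tested genes it was the highest for 19.9%. It lay above the mean of the other 5 libraries for 15 of 16 enzymes and for 32 of 45 members. The share of all tested genes above that mean was not computed, so these 2 counts have no background beside them. Summed over the 16 enzymes, the level was 4885, 5207 and 5151 CPM in Ang, against 4421, 5759 and 4085 CPM in Con. The sum in Con replicate 2 was the highest of the 6 libraries and the sums in Con replicates 1 and 3 were the lowest. Con replicate 2 also had the lowest strand ratio and the most reads in genes without opposite-strand overlap. They made up 23.8 to 25.5% of the counts in the Ang libraries, against 23.3, 28.7 and 21.7% in Con replicates 1 to 3. With the strand ratio as a covariate, 4 of 16 enzymes were at an unadjusted edgeR p under 0.05, against 6.48% of all genes, with 0 called. The part of these differences in the enzyme levels was not tested in another way. Without this library 9 of 16 enzymes were at an unadjusted edgeR p under 0.05, against 11% of all genes, with 0 called.

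**Figure D5:**
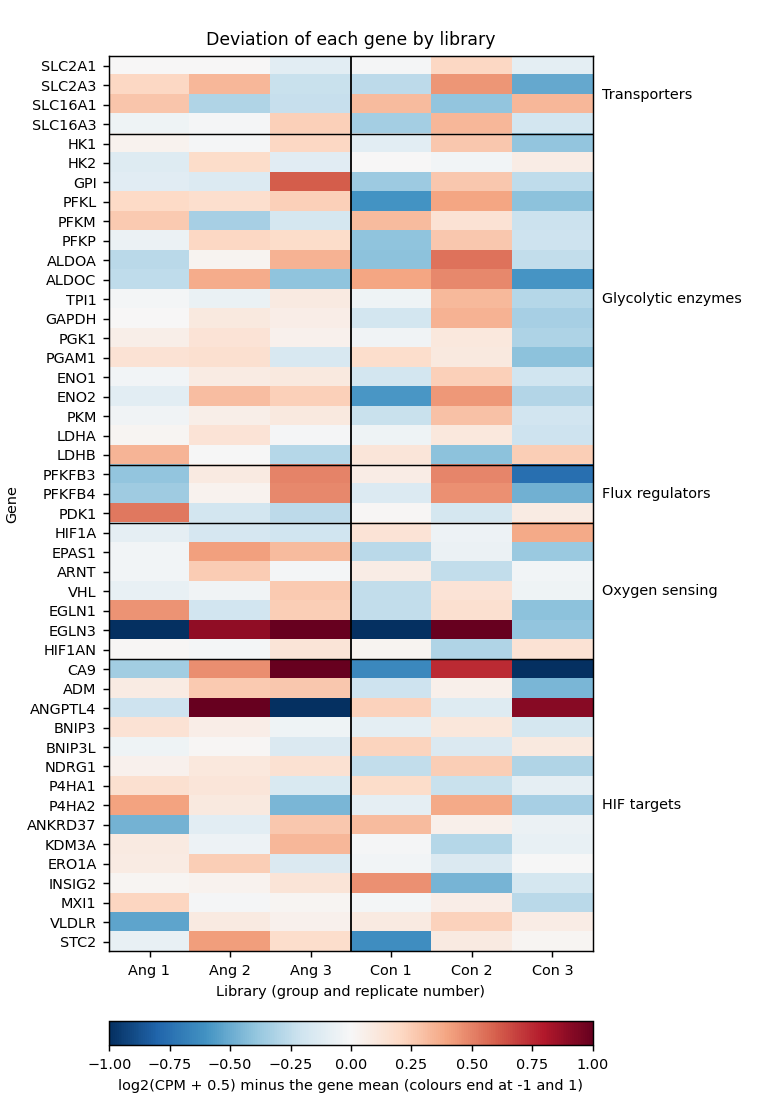
Deviation of each of the 46 genes in each library from its mean over the 6 libraries, as log2(CPM + 0.5), with red above and blue below the mean. Most enzymes are above their mean in Con replicate 2, which is the highest library for 10 of 16 tested enzymes.

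Flux regulators act beside the enzymes. PFKFB3 and PFKFB4 make fructose 2,6-bisphosphate, the activator of phosphofructokinase, and both are HIF targets. PFKFB3 had 19.1, 27.0 and 35.8 CPM in Ang, against 26.6, 35.7 and 14.8 CPM in Con. PFKFB4 had 17.6, 23.2 and 31.8 CPM in Ang, against 20.5, 31.3 and 16.0 CPM in Con. Both genes were high in Ang replicate 3 and Con replicate 2 and lowest in Con replicate 3, and the groups overlapped. Their split was close to even per kilobase, with PFKFB3 at 52.9 ± 0.887% of the pair in Ang and 52.6 ± 4.31% in Con. PFKFB2, a form outside the list, held 56.0 ± 9.23% in Ang and 58.2 ± 13.8% in Con once it was added to the pair. PDK1, the kinase that shuts pyruvate out of the mitochondrial dehydrogenase, had 77.2, 47.1 and 44.5 CPM in Ang, against 54.1, 47.3 and 56.6 CPM in Con, with the highest value in Ang replicate 1. All 3 regulators had log2 fold changes of 0.07 to 0.10, each smaller than its SE.

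The oxygen-sensing genes held the 2 smallest p-values of the list. HIF1A (chromosome 14, 61695513 to 61748259 on GRCh38, plus strand) had 481, 455 and 445 CPM in Ang, against 564, 493 and 665 CPM in Con. All 3 Ang libraries were below all 3 Con libraries. The log2 fold change was -0.32 ± 0.17 (95% interval -0.66 to 0.02), with an unadjusted edgeR p of 0.0667. EPAS1 (chromosome 2, 46293667 to 46386703, plus strand), which encodes HIF-2 alpha, had 27.3, 37.1 and 34.7 CPM in Ang, against 23.0, 26.7 and 21.4 CPM in Con. Here all 3 Ang libraries were above all 3 Con libraries, with Ang replicate 1 and Con replicate 2 close together. Its log2 fold change was 0.47 ± 0.25 (95% interval -0.03 to 0.97), with an unadjusted edgeR p of 0.0640. Neither gene passed the adjusted threshold, and HIF1A shares exon bases with HIF1A-AS1 on the other strand while EPAS1 shares none with any gene. With the strand ratio as a covariate, HIF1A had a log2 fold change of -0.33 ± 0.08. Its edgeR p was 0.000269 unadjusted and 0.277 adjusted. EPAS1 had 0.50 ± 0.23 in that fit, with an edgeR p of 0.0311 unadjusted and 0.696 adjusted.

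Per kilobase, HIF1A made up 96.2, 94.6 and 94.8% of HIF1A plus EPAS1 in Ang, against 97.2, 96.3 and 97.8% in Con. The Ang shares were all below the Con shares, with a difference of -1.93 percentage points between 95.2 ± 0.856% in Ang and 97.1 ± 0.736% in Con (SD, n = 3 each). The exact two-sided permutation p was 0.1, the smallest this design can give, and 0.84 after Benjamini-Hochberg adjustment over 14 shares in 12 families. It was the 1 family of 12 whose groups did not overlap. Without Con replicate 2 the groups did not overlap in 6 of 12 families, and the HIF1A difference was -2.32 points. The 6 were BNIP3, HIF alpha, enolase, glucose transporter, monocarboxylate transporter and phosphofructokinase. Leaving out any other library gave 1 or 2 families. With 1 library fewer in a group, non-overlap is easier to reach by chance, so these counts are not comparable with the 1 of 12. Beside the shares stand the strand ratios of the libraries, 35.0, 32.9 and 35.4 in Ang and 39.3, 23.2 and 41.1 in Con. Within each group the library with the lowest strand ratio also had the lowest HIF1A share. The order did not hold throughout, as Ang replicate 3 had a higher ratio than Ang replicate 1 but a lower share. Con replicate 2 had the lowest ratio of the 6 libraries, and its share was above those of all Ang libraries. The part of this ratio in the share was not tested.

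Of the other sensors, none passed the test. ARNT, the common partner of both alpha subunits, had 26.4 to 32.3 CPM in Ang and 22.7 to 28.5 CPM in Con. VHL had 39.6 to 50.3 CPM in Ang and 35.1 to 46.0 CPM in Con. HIF1AN had 317 to 352 CPM in Ang and 261 to 356 CPM in Con, within the strand limit stated above. All 3 overlapped between groups, with log2 fold changes of 0.14, 0.10 and 0.07. EGLN1, the main HIF prolyl hydroxylase, had 16.4, 10.3 and 14.2 CPM in Ang, against 9.93, 13.4 and 8.81 CPM in Con. EGLN3, the hydroxylase that HIF itself induces, had 0.587, 5.29 and 6.07 CPM in Ang, against 1.06, 5.75 and 1.89 CPM in Con. EGLN3 lay near the limit of detection in Ang replicate 1, where it had 2 counts, so the EGLN1 share of 77.8 ± 16.4% in Ang and 81.1 ± 10.2% in Con rests on few reads. Of the 7 oxygen-sensing genes, 6 had a log2 fold change above 0, with a median of 0.14, and Con replicate 2 was the highest library for 0 of them.

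HIF targets outside glycolysis cover pH, vessel tone, mitophagy and collagen. CA9, a classical marker of hypoxia, had 3.23, 6.05 and 10.4 CPM in Ang, against 2.53, 7.44 and 1.26 CPM in Con. CA9 was thus counted low in all 6 libraries, with the groups overlapping. Its log2 fold change of 0.74 ± 0.55 was the largest of the list, with an unadjusted edgeR p of 0.179, and it was 1.73 ± 0.70 without Con replicate 2. Its partner ARHGEF39 on the other strand, which covers 38.5% of the CA9 exon bases, averaged 323 ± 34.3 CPM in Ang and 292 ± 56.7 CPM in Con. ADM, which encodes the vasodilator adrenomedullin, had 18.5, 20.9 and 21.1 CPM in Ang, against 15.0, 18.1 and 12.6 CPM in Con. For ADM every Ang library lay above every Con library, with Ang replicate 1 and Con replicate 2 nearly level. The log2 fold change was 0.39 ± 0.30, with an unadjusted edgeR p of 0.191. KDM3A, a histone H3 lysine 9 demethylase, had 62.8, 56.7 and 74.2 CPM in Ang, against 58.3, 48.2 and 56.0 CPM in Con. Only Ang replicate 2 fell within the Con range, and the log2 fold change was 0.26 ± 0.20 with an unadjusted edgeR p of 0.202.

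BNIP3 and BNIP3L are receptors that target mitochondria for removal. BNIP3 had 310.1, 293 and 272 CPM in Ang, against 262, 303 and 248 CPM in Con. BNIP3L had 156, 162 and 146 CPM in Ang, against 187, 146 and 172 CPM in Con. The BNIP3 share per kilobase was 61.6, 59.4 and 60.1% in Ang and 53.1, 62.7 and 53.8% in Con, so only Con replicate 2 was above the Ang libraries (exact permutation p = 0.4). Reads on 17 BNIP3 pseudogenes came to 5.20% of the BNIP3 count. P4HA1 and P4HA2 are alpha subunits of the collagen prolyl hydroxylase. P4HA1 had 81.0, 79.2 and 65.3 CPM in Ang, against 82.4, 62.0 and 68.3 CPM in Con. P4HA2 had 66.3, 53.5 and 36.4 CPM in Ang, against 46.9, 65.3 and 39.6 CPM in Con. P4HA1 made up 80.2 ± 3.05% of P4HA1 plus P4HA2 per kilobase in Ang and 79.2 ± 5.99% in Con. With P4HA3, the third alpha subunit, which is not on the list, P4HA1 made up 48.1 ± 2.46% in Ang and 46.5 ± 0.614% in Con, and P4HA3 39.8 ± 4.95% in Ang and 41.1 ± 4.89% in Con. Both listed loci have an opposite-strand gene with over 10 times their counts per base.

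None of the remaining targets passed the test. NDRG1, a differentiation-related gene strongly induced by hypoxia, was the most abundant target per kilobase at 59.1 CPM per kilobase. It had 592, 620.0 and 638 CPM in Ang, against 486, 682 and 468 CPM in Con, again with Con replicate 2 highest and the other Con libraries lowest. ERO1A, an oxidase of the endoplasmic reticulum, had 176 to 230.5 CPM in Ang and 175 to 194 CPM in Con. ANKRD37, MXI1, a repressor of the MYC network, and INSIG2, a regulator of sterol synthesis, lay between 31.1 and 61.9 CPM in every library. The lipoprotein receptor gene VLDLR had 17.9 to 27.7 CPM in Ang and 27.4 to 30.6 CPM in Con. The secreted factors STC2 and ANGPTL4 were counted low, with 7.92 to 11.3 CPM in Ang and 5.28 to 8.96 CPM in Con for STC2, and 0.289 to 5.80 CPM in Ang and 2.20 to 5.03 CPM in Con for ANGPTL4. Over the 15 targets, 11 had a log2 fold change above 0, with a median of 0.11.

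Members split by opposite-strand overlap, a split chosen after the data were seen, gave unlike counts. The log2 fold change was above 0 for 22 of 22 tested members free of overlap, with a median of 0.17, and for 12 of 23 overlapping members, with a median of 0.02. Over all tested genes the shares above 0 were 51.2% of the genes free of overlap and 47.6% of the overlapping genes. Without Con replicate 3 the members above 0 numbered 16 of 22 and 9 of 23, beside 44.2% and 51.5% of all such genes. Without Con replicate 1 they numbered 20 of 22 and 8 of 23, beside 47.7% and 49.8%. Without Con replicate 2 they numbered 21 of 22 and 12 of 23, beside 58.5% and 42.1%. The order of the all-gene shares thus turned with the library left out. Genes of 1 library are not independent of each other, so these counts are a description.

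Other genes of both pathways were not called either. Of 126 listed genes, 101 were tested and 0 were called, with 3 at an unadjusted edgeR p under 0.05, all lower in Ang. Of 47 other genes of glycolysis and sugar use, 24 had a log2 fold change above 0. LDHAL6A, a lactate dehydrogenase-like gene, averaged 1.57 ± 1.64 CPM in Ang and 6.48 ± 2.64 CPM in Con, with a log2 fold change of -1.97 ± 0.68. The other named genes of this set were PGLS (-0.92 ± 0.45), a pentose phosphate lactonase, and PDK4 (0.97 ± 0.55), a pyruvate dehydrogenase kinase, as log2 fold changes. Of 54 other genes of the oxygen pathway, 36 had a log2 fold change above 0. NARF (-0.50 ± 0.29), KDM3B (0.31 ± 0.21), a paralogue of KDM3A, LOXL2 (0.26 ± 0.18), a lysyl oxidase, and AK4 (-0.35 ± 0.26), a mitochondrial adenylate kinase, had the smallest p-values there. LOXL2 had 142, 152 and 151 CPM in Ang, against 93.6, 174 and 103 CPM in Con. This is the pattern of PFKL, ENO2 and PKM, with Con replicate 2 highest and Con replicates 1 and 3 lowest. Without Con replicate 2, LOXL2 was the 1 gene of these lists that edgeR called (adjusted p = 0.045).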

How the data were processed

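Messenger RNA of MDA-MB-231 cells was sequenced in 3 Ang and 3 Con libraries. Per the labels' protocols, RNA was selected on poly-T beads, and no step that marks the strand is named. The authors deposited whole-number counts of reads per gene, with Ensembl IDs, for each library. HTSeq 0.9.1, DESeq 1.39.0 and build GRCh38 are named, per the submitters' processing notes. Aligner, annotation release and strand setting are not stated in the labels or files used. Of 28979 IDs, 28918 matched a symbol and 28192 matched GENCODE 29. No row was without a gene.

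Counts were tested with edgeR 4.0.16 in R 4.3.3 (filterByExpr, TMM scaling, robust quasi-likelihood test, Benjamini-Hochberg threshold 0.05, no covariate). Log2 fold changes are Ang minus Con with the SE from the same fit. The fit was tested on simulated counts with known changes. A count of 0 allows up to 3 counts, 0.507 to 0.944 CPM. That limit and the Clopper-Pearson intervals of the LDHB share cover counting error only. They do not allow for PCR copies, which carry no molecular identifiers. The intervals of the fold changes use the SE of the edgeR fit, which also reflects variation between libraries. No pair of libraries agreed within sampling noise (chi-square per gene 3.62 to 14.5).

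Isoenzyme shares used counts per kilobase of merged GENCODE 29 exons, tested by exact permutation over libraries. Strand pairs needed 90% of the noncoding gene's exon bases under the coding gene and at least 300 counts in the coding gene, with 0.5 added to each count.

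Groups share replicate numbers, so pairing was checked. The deviations of same-numbered libraries from their group means correlated at 0.0395 to 0.0804. Those of differently numbered libraries correlated at -0.0814 to 0.0376, all below these values. All the correlations were small and no label ties the numbers, so the samples were not treated as paired. A replicate block was fitted as an alternative.

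Members, lists, tests and the naming rule were chosen with earlier results of these data known. Values by library were given for family members, for the 8 members with the smallest p and the 6 most abundant per kilobase. Of each other list the 4 genes with the smallest p were named, except 1 gene that is not reported here, and opposite-strand genes at 10 times a member's counts per base. Alternatives were RLE scaling, other low-count filters, a replicate block, leaving out each library, a strand ratio covariate, genes free of overlap alone, limma-voom (limma 3.58.1), DESeq2 1.42.0, other gene lengths and, chosen after the data were seen, families widened by further isoenzymes.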

Additional observations from a re-analysis of the deposited data

How the results depend on the processing

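No setting called a member. Over all tested genes, the calls were 0 in 6 libraries, 4 with the strand ratio as a covariate and 1 with that covariate and without the second Con library. Leaving out each library gave 0 to 40 calls, the most (40) in the fit that lacks Con replicate 2 and 1 in the fit that lacks Con replicate 1. Members at an unadjusted p under 0.05 numbered 0 at first, 2 of 45 with the replicate block (HIF1A and PFKL, 3.95% of all genes), 8 of 45 with the strand covariate (6.48% of all genes), 1 of 22 among genes free of overlap (4.55% of such genes), 2 of 45 with the covariate and without the second Con library (5.20% of all genes), 1 of 45 with DESeq2 (2.83% of all genes) and 0 to 15 on leaving out each library, with 15 without Con replicate 2. The replicate block moved no call, and 0 genes passed in it. Intervals within 2-fold numbered 19 among the 22 members free of overlap and 10 with the covariate and without the second Con library, against 40 of 45. Leaving out each library gave 0 to 1 called genes of the other pathway lists and 1 to 6 families without overlap of the shares, 6 without Con replicate 2 and 2 without Ang replicate 1.

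The median log2 fold change of the members was 0.02 to 0.22 on leaving out each library. Of 652 alternative values of single members, 48 changed sign with no call and 0 passed the threshold. HIF1A ran from -0.41 to -0.20 and EPAS1 from 0.09 to 0.59. Of 121 alternative shares, 16 moved with the gene length used and 4 with wider families (ENO1, LDHA, PFKFB3 and P4HA1). The mean ENO1 share was 18.0% and the PFKFB3 share 22.7% there. By the shares of the listed forms, HIF alpha was still the 1 family without overlap. Of the added forms, LDHAL6A also did not overlap, at 0 to 0.772% in Ang and 0.859 to 2.29% in Con. Neither did LDHC, which had 9 counts over all libraries. The mean SLC16A1 share was 30.4% per kilobase of merged exons, 22.4% for the longest transcript and 20.7% without length, P4HA1 79.7%, 62.9% and 59.1%. Depth limits LDHB, EGLN3, ANGPTL4 and CA9, where few reads leave fold changes of over 2-fold inside the interval or, for LDHB, no test. The intervals of EGLN1 and STC2 also reach beyond 2-fold.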
